A study of Mus musculus with 3 samples.

Results

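The genes described here are 8 CC chemokine ligands (Ccl2, Ccl7, Ccl12, Ccl3, Ccl4, Ccl6, Ccl9 and Ccl24) and 1 receptor, Ccr2. They were taken by gene symbol from the deposited count matrices, where each symbol named 1 row, and make up 9 of the 31053 genes counted. The cells were the non-parenchymal fraction of livers from female Balb\c mice, profiled by droplet single-cell RNA sequencing with 3 libraries, 1 per group. The first was a control injected orthotopically with PBS (8 weeks old), the second came from mice 4 days after orthotopic injection of 4T1 breast cancer cells (8 weeks old), and the third from mice 21 days after the same 4T1 injection (11 weeks old). Injections were given at 8 weeks of age. The labels give neither the number of mice behind a library nor the day on which the control was collected, so age, day and tumour cannot be told apart at day 21. With 1 library per group no test between groups was possible, and every 95% interval below covers counting error only.

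CC chemokines are small secreted proteins that draw leucocytes along a gradient by binding G protein-coupled receptors. In the mouse Ccl2, Ccl7 and Ccl12 act on Ccr2, the receptor with which inflammatory monocytes leave the bone marrow and enter injured liver, where Kupffer cells (the resident macrophages) and stellate cells (the perisinusoidal mesenchymal cells) are known sources of Ccl2. Ccl3, Ccl6 and Ccl9 bind Ccr1, Ccl4 attracts monocytes and lymphocytes, and Ccl24, an eotaxin, binds Ccr3, the receptor best known from eosinophils.

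All ligand genes but Ccl24 lie on chromosome 11, in 2 groups (GENCODE M21, GRCm38). Ccl2 (chr11:82035571-82037453, plus strand), Ccl7 (chr11:82045712-82047525, plus) and Ccl12 (chr11:82101845-82103400, plus) form the first group, with 8258 bp between Ccl2 and Ccl7. Ccl9 (chr11:83572919-83578636, minus), Ccl6 (chr11:83587882-83593087, minus), Ccl3 (chr11:83647844-83649355, minus) and Ccl4 (chr11:83662584-83664683, plus) form the second. Ccl24 lies on chromosome 5 (chr5:135569937-135573049, minus) and Ccr2 on chromosome 9 (chr9:124101950-124113557, plus). Ccl2 is overlapped on the opposite strand by Gm17268 and Ccl6 by E230016K23Rik. Whether counting used strand is not stated in the labels or files, and whether reads of those partners were counted as Ccl2 or Ccl6 was not tested.

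Ccl6 and Ccl9 are neighbours, 9245 bp apart, whose levels summed over Kupffer-like cells differed from the control in opposite directions, so the 250 bases before their start sites are shown (RefSeq, GRCm38.p6, minus strand, 5′ to 3′). Capitals mark the longest run of bases that both share.
Ccl6, chr11:83593088-83593337: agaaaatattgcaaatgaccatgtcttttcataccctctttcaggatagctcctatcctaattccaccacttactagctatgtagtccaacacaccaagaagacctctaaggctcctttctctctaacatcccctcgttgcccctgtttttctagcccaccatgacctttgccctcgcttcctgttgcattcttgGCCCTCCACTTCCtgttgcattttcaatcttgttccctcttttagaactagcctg
Ccl9, chr11:83578637-83578886: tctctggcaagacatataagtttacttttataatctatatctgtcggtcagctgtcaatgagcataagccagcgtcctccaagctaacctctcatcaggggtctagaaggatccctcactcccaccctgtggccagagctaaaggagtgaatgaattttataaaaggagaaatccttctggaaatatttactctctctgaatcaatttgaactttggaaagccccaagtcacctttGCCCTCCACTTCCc
The shared run is 13 bases long, and it ends 42 bases before the start in Ccl6 and 1 base before it in Ccl9. On either strand it was found in 5 of 32851 promoter windows of the same kind (0.0152%). RefSeq windows were matched for 5 members, Ccl12, Ccr2, Ccl3, Ccl6 and Ccl9. Of these 5, Ccl9 alone held the kappaB-type letters, GGG and TTTCC with 2 free bases between them (1.41% of all windows, both strands), and the AP-1-type letters TGANTCA (6.75%). The C/EBP-type letters TTGCNNAA (9.56%) and the PU.1-type letters GAGGAAGT (2.44%) were in none of them. These are letter matches only.

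The control, day 4 and day 21 libraries held 6489, 9175 and 12338 barcodes and 27191082, 34833820 and 51913215 UMIs (unique molecular identifiers, each a captured transcript). Filters on genes and mitochondrial UMIs and removal of called doublets left 4694, 5410 and 9938 cells, with median depths of 4179, 4438 and 3017 UMIs. Pairs of libraries shared 13 to 32 barcodes and no barcode was in all 3. The cells formed 32 clusters, clustered without the members and the other listed chemokine genes, and 25 clusters took 1 of 13 class names from marker genes. Expected liver classes were present, with 481, 935 and 679 Kupffer-like, 390, 478 and 225 stellate-like, and 1038, 1138 and 116 endothelial-like cells, beside 84, 216 and 195 hepatocyte-like cells. The endothelial-like numbers are not a count of all cells with endothelial markers: unnamed clusters 1 (831, 678 and 205 cells), 8 (7, 8 and 885), 14 (315, 334 and 8) and 16 (164, 238 and 133) each had 13 or 14 of the 14 endothelial markers detected. Monocyte/macrophage-like cells numbered 26, 23 and 1050, and neutrophil-like cells 56, 195 and 3194. In B-like cells the 13 neutrophil markers summed to 2097 CPM at day 21 (counts scaled to a library or class sum of 1000000 UMIs) and 749 CPM at day 4, against 32.9 CPM in the control. They summed to 86.4, 3188 and 2687 CPM in NK/ILC1-like cells and to 1180, 1915 and 8674 CPM in hepatocyte-like cells. In control hepatocyte-like cells only 3 of the 13 markers were detected, and Ly6g, Retnlg and Cxcr2 were not among them. The 1180 CPM is therefore not read as neutrophil transcripts. In hepatocyte-like cells 10 markers were detected at day 4 and 13 at day 21. How much of those sums matched the control level of the same genes was not tested. Neutrophil transcripts were thus found in cells of other classes in both 4T1 libraries, though at day 4 their sum was not above the control in every class. The sums were 75.3, 73.2 and 6404 CPM in Kupffer-like cells and 871, 24.5 and 3733 CPM in conventional dendritic-like cells. The part of neutrophil transcripts in the results below was not tested.

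**Figure D1:**
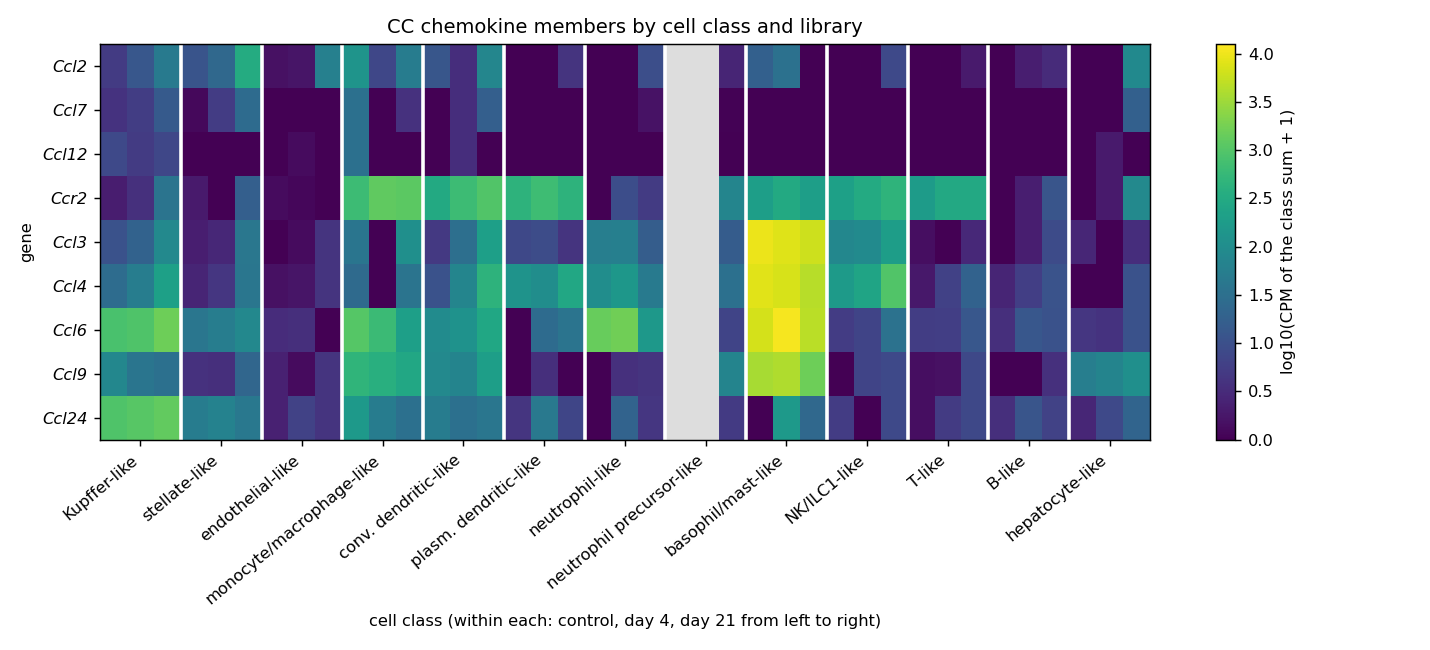
Level of each of the 9 genes (rows) in each named class, as log10 of CPM + 1 on the colour scale, with 3 columns per class for the PBS control, 4T1 day 4 and 4T1 day 21 libraries and grey where a library had under 10 cells. Ccl24 is highest in Kupffer-like cells, Ccl6, Ccl9, Ccl3 and Ccl4 in basophil/mast-like cells, and Ccr2 in monocyte/macrophage-like and dendritic-like cells.

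Over all kept cells most members were highest at day 21, while Ccl6 and Ccl24 were highest at day 4 and Ccl12 was highest in the control. Ccl2 had 4.02, 7.11 and 27.5 CPM in the control, day 4 and day 21 libraries. Ccr2 had 39.6, 63.3 and 262 CPM, and Ccl9 had 29.2, 26.1 and 93.8 CPM. Ccl3 had 28.1, 29.7 and 83.0 CPM and Ccl4 31.0, 57.1 and 86.1 CPM, so all 5 were highest at day 21. Ccl6 (170, 295 and 175 CPM) and Ccl24 (156, 284 and 57.4 CPM) stood out at day 4, the library with the largest number of Kupffer-like cells. Ccl7 (0.754, 1.96 and 2.45 CPM) and Ccl12 (1.26, 1.17 and 0.219 CPM) were scarce throughout, with 18, 55 and 112 UMIs of Ccl7 and 30, 33 and 10 of Ccl12. Such totals mix the level within a class with the number of its cells, so the rest is given by class, as CPM of the summed UMIs of that class.

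Ccl2, the main Ccr2 ligand, was found in stellate-like and Kupffer-like cells of all 3 libraries, and was higher in both classes in the 4T1 libraries. In stellate-like cells it stood at 10.4 CPM in the control (44 UMIs, interval 7.57 to 14.0), 23.1 CPM at day 4 (99 UMIs, 18.8 to 28.1) and 326 CPM at day 21 (480 UMIs, 298 to 357). The ratio over the control was 2.22-fold at day 4 (log2 1.14, interval 0.62 to 1.70) and 31.3-fold at day 21 (log2 4.95, 4.52 to 5.45). The intervals of the 3 libraries did not overlap. Ccl2 was detected in 5.64% of control, 8.58% of day 4 and 39.6% of day 21 stellate-like cells, and in 0.258, 1.26 and 16.4% when every cell was thinned to 1000 UMIs. B-like cells, taken as background, had Ccl2 in 0, 0.446 and 0.553% of cells. Median depths were 9198, 7790.5 and 6285 UMIs in stellate-like and 2895, 2992.5 and 1539 UMIs in B-like cells, so both classes were shallowest at day 21.

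The stellate-like class was held mostly by different clusters in different libraries, which bears on that ratio. Cluster 10 had 369 control, 448 day 4 and 4 day 21 cells and was led by Ecm1, Angptl6 and Colec11. Cluster 21 had 21, 30 and 221 cells and was led by Cyr61, Col1a1 and Mustn1. Ccl2 in cluster 10 was 10.0 CPM in the control and 18.2 CPM at day 4, and in cluster 21 it was 15, 67.1 and 330 CPM. Ccl2 was therefore higher at day 21 within cluster 21 as well (log2 4.33 over the control), but the 13 Kupffer markers summed to 16732 and 20220 CPM in its control and day 4 cells, against 1239 CPM at day 21. Among stellate-like cells with at most 0.2% of UMIs on Kupffer markers (372, 448 and 207 cells), Ccl2 was 10.1, 21.3 and 340 CPM. Most of these control and day 4 cells were still of cluster 10, and most of the day 21 cells of cluster 21. These values therefore cannot show whether Ccl2 differed within stellate-like cells of the same kind. At day 21 the 5 stellate-like cells with the most Ccl2 held 34.0% of its UMIs in that class. Thinning to 1000 UMIs gave a day 21 log2 ratio of 6.69, and cluster 21 alone a day 4 log2 ratio of 2.05.

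In Kupffer-like cells Ccl2 was 4.15 CPM in the control (15 UMIs, 2.32 to 6.85), 11.9 CPM at day 4 (82 UMIs, 9.49 to 14.8) and 48.5 CPM at day 21 (76 UMIs, 38.2 to 60.8). The ratio over the control was 2.87-fold at day 4 (log2 1.48, 0.72 to 2.42) and 11.7-fold at day 21 (log2 3.51, 2.74 to 4.45). It held within each Kupffer-like cluster at day 21, with log2 3.08 (1.48 to 6.47) in shallower cluster 3 (179, 347 and 639 cells) and 4.09 (2.86 to 5.31) in deeper cluster 7 (302, 588 and 40 cells). Ccl2 was seen in 2.70, 5.13 and 7.66% of Kupffer-like cells, and in 1.14, 0.71 and 4.04% after thinning, where day 4 no longer lay above the control and the day 21 log2 ratio was 1.85. Median depths were 7770, 7402 and 1998 UMIs. The 13 Kupffer markers summed to 36253, 40702 and 35494 CPM there, so the identity genes of the class were at like levels, while the 13 neutrophil markers summed to 75.3, 73.2 and 6404 CPM with none at 0 at day 21. Day 21 neutrophil-like cells themselves had Ccl2 at 8.79 CPM, and at 43.4 CPM in their cluster 2.

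The 26 control and 23 day 4 monocyte/macrophage-like cells are too few for a level of Ccl2: 19 of 21 control UMIs lay in 1 cell, and day 4 had 1 UMI. At day 21 this class had 51.9 CPM (416 UMIs, 47.0 to 57.2) in 14.9% of 1050 cells. Single cells also set the levels in classes that are not usual sources. Of the 36 Ccl2 UMIs in day 21 hepatocyte-like cells 35 were in 1 cell, and of the 19 in endothelial-like cells 17 were in 1 cell. In conventional dendritic-like cells 5 cells held 89.4% of the 47 UMIs at day 21. Unnamed cluster 16, which carried stellate and endothelial leading genes (Rgs5, Lyve1), had Ccl2 at 4.88, 2.66 and 88.1 CPM, the last from 32 UMIs in 14.3% of its 133 cells.

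Ccl7, a second Ccr2 ligand, had its UMIs in much the same classes at far lower counts. Kupffer-like cells had 3.04 CPM (11 UMIs), 4.51 CPM (31 UMIs) and 13.4 CPM (21 UMIs), with log2 ratios over the control of 0.53 at day 4 (-0.46 to 1.71) and 2.11 at day 21 (1.02 to 3.34). Stellate-like cells had 0.237 CPM (1 UMI), 4.44 CPM (19 UMIs) and 26.5 CPM (39 UMIs), and 18 of the 19 day 4 UMIs lay in cluster 21. At day 21 Ccl7 was in 11.1% of stellate-like cells. B-like cells had 0 UMIs in all 3 libraries. Ccl12, a mouse ligand of Ccr2 with no direct human counterpart, was held by Kupffer-like cells at 6.92 CPM (25 UMIs), 4.08 CPM (28 UMIs) and 6.39 CPM (10 UMIs). Its log2 ratios of -0.77 at day 4 (-1.59 to 0.07) and -0.07 at day 21 (-1.34 to 0.99) included 0, so no difference of Ccl12 from the control was detectable at this depth.

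Summed over Ccl2, Ccl7 and Ccl12, the control had 144 ligand UMIs, day 4 had 288 and day 21 had 1377. Kupffer-like cells held 35.4, 49.0 and 7.77% of them, and stellate-like cells 31.2, 41.0 and 37.7%. Monocyte/macrophage-like cells held 21.5% in the control, most of it in 1 cell, and 31.9% at day 21. The part held by Kupffer-like cells was smallest at day 21 although the level of the ligand sum in them was largest there (14.1, 20.5 and 68.3 CPM), where 679 of 9938 cells were Kupffer-like. In stellate-like cells that sum was 10.7, 27.6 and 353 CPM.

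**Figure D2:**
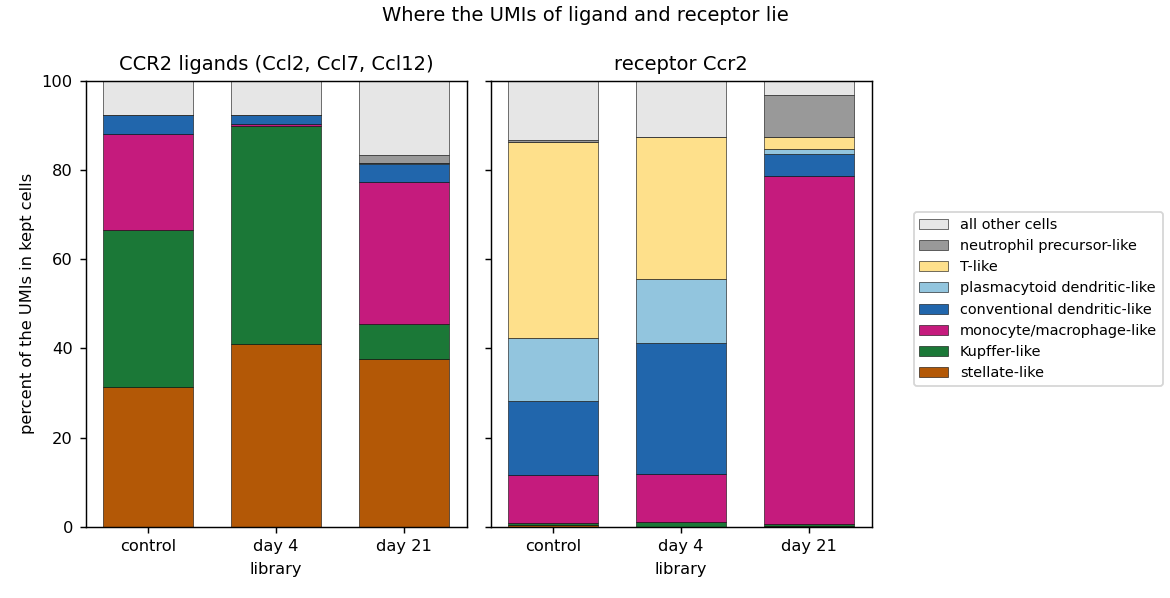
Percent of the UMIs of the Ccr2 ligands (Ccl2, Ccl7 and Ccl12 together) and of Ccr2 that lay in each class, as stacked bars, for the PBS control, 4T1 day 4 and 4T1 day 21 libraries. Stellate-like and Kupffer-like cells held most ligand UMIs in the control and at day 4, while 77.9% of Ccr2 UMIs at day 21 were in monocyte/macrophage-like cells.

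In the control and at day 4 Ccr2, their receptor, lay mostly in classes with few ligand UMIs. In the control T-like cells held 43.9% of Ccr2 UMIs, conventional dendritic-like 16.6%, plasmacytoid dendritic-like 14.2% and monocyte/macrophage-like 10.8% (8.89 to 12.9). At day 4 the same 4 classes held 31.8, 29.3, 14.3 and 10.8%. At day 21 monocyte/macrophage-like cells, with 31.9% of the ligand UMIs, held 77.9% (77.2 to 78.7) of those of Ccr2 and neutrophil precursor-like cells 9.52%, with 2.52% left in T-like cells. That shift went with the number of monocyte/macrophage-like cells, which were 0.554, 0.425 and 10.6% of kept cells. The day 21 share depended on how cells were grouped: it was 36.8% at Leiden resolution 0.5, 39.9% with called doublets kept and 42.4% with no cell filter.

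The level of Ccr2 within monocyte/macrophage-like cells moved less than their share of its UMIs. Monocyte/macrophage-like cells had 650 CPM (102 UMIs, 530 to 789), 1237 CPM (193 UMIs, 1069 to 1425) and 1163 CPM (9318 UMIs, 1139 to 1187), with log2 ratios over the control of 0.92 at day 4 (0.57 to 1.29) and 0.83 at day 21 (0.56 to 1.13). Ccr2 was in 76.9, 87.0 and 97.5% of these cells, and in 38.5, 71.4 and 70.1% after thinning, at median depths of 6613.5, 6223 and 6383 UMIs. Endothelial-like cells, taken as background, had Ccr2 in 0.193, 0.0879 and 0% of cells at median depths of 5635, 5158 and 2746 UMIs, where 0 of 116 cells allows a share of cells with a Ccr2 UMI of up to 3.13% (exact 95% bound), which does not limit the share of cells that express it. All control and day 4 cells of the class were of cluster 15, which at day 21 (526 cells, 1895 CPM) stood beside cluster 17 (524 cells, 867 CPM), which had no control or day 4 cell and cycling genes such as Ccna2 and Birc5 among its leading genes. Within cluster 15 the day 21 log2 ratio was 1.54 (1.26 to 1.84).

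Ccr2 was also higher in lymphoid and dendritic classes of the 4T1 libraries. Conventional dendritic-like cells had 305, 638 and 973 CPM (157, 522 and 603 UMIs), with log2 ratios of 1.06 at day 4 (0.81 to 1.33) and 1.67 at day 21 (1.42 to 1.94). In that class monocyte/macrophage markers summed to 2418, 3586 and 6128 CPM and Kupffer markers to 1440, 3372 and 3312 CPM. The part of such transcripts in its Ccr2 was not tested. The class was a single cluster with Xcr1 and Cd209a among its leading genes, and its subsets were not separated. T-like cells had 174, 300 and 295 CPM (415, 566 and 301 UMIs), with log2 ratios of 0.78 (0.60 to 0.97) and 0.76 (0.54 to 0.98). NK/ILC1-like cells, in which the neutrophil markers were highest at day 4, had 216, 321 and 456 CPM, with log2 ratios of 0.57 (-0.01 to 1.16) and 1.07 (0.53 to 1.64). All 3 classes were above the control at both times, though the day 4 interval of NK/ILC1-like cells reached 0. Plasmacytoid dendritic-like cells had 451, 668 and 452 CPM, so day 21 was level with the control. Kupffer-like cells had 1.11 CPM (4 UMIs), 2.77 CPM (19 UMIs) and 36.4 CPM (57 UMIs), with a day 21 log2 ratio of 4.88 (3.60 to 6.96), and with 102 CPM in cluster 7 and 27.5 CPM in cluster 3 at day 21. That was far below monocyte/macrophage-like cells in each library. Stellate-like cells had 0.947, 0 and 16.3 CPM. Neutrophil precursor-like cells of day 21 had 73.7 CPM, with 121 CPM in cluster 11 (Elane, Mpo) and 8.93 CPM in cluster 13 (Camp, Ngp).

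In 1 of the 4 classes with most Ccl2 UMIs at day 21, most cells with Ccl2 also had a Ccr2 UMI. Among the 1050 day 21 monocyte/macrophage-like cells Ccr2 was found in 98.1% of the 156 cells with Ccl2 and in 97.4% of those without. In day 21 stellate-like cells it was found in 1.12% of the 89 cells with Ccl2 and in 6.62% of those without. In day 21 neutrophil-like cells it was found in 1 of the 52 cells with Ccl2. Of Kupffer-like cells with Ccl2, none of 13 in the control, none of 48 at day 4 and 5 of 52 at day 21 had a Ccr2 UMI.

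**Figure D3:**
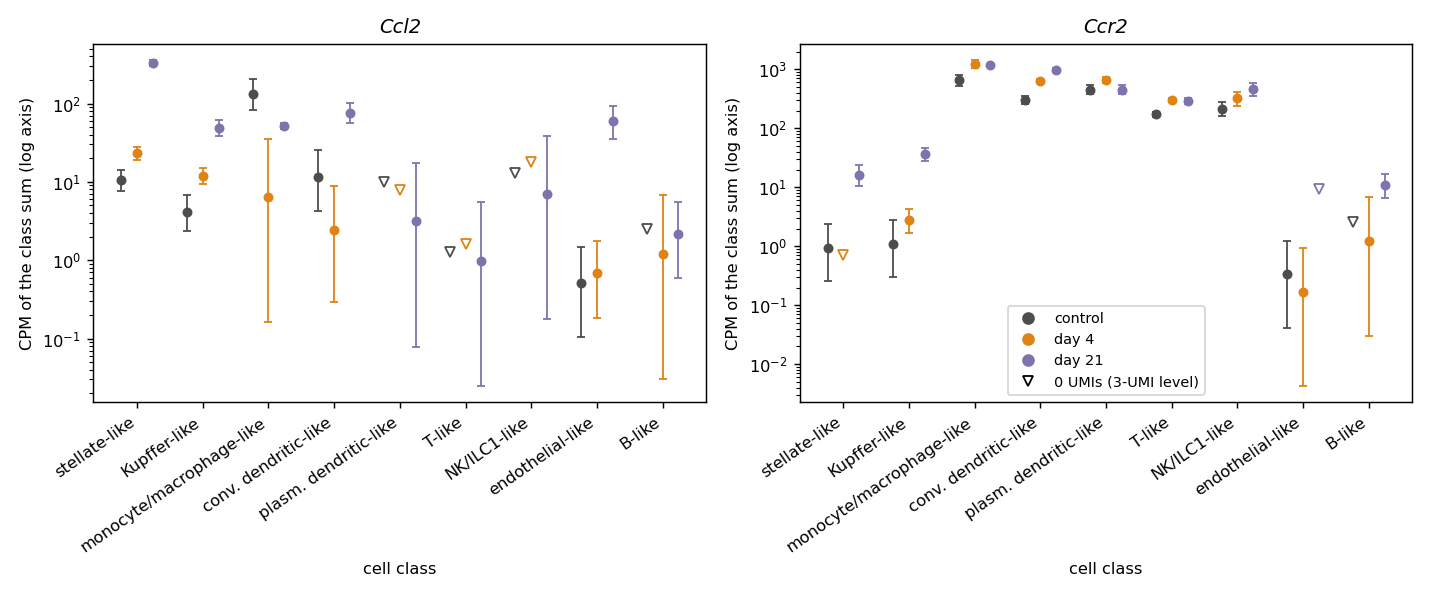
CPM of Ccl2 (left) and Ccr2 (right) in each class on a log axis, for the PBS control, 4T1 day 4 and 4T1 day 21 libraries, with 95% Poisson intervals as bars and open triangles at the level of 3 UMIs where a class had none. Ccl2 in stellate-like cells stood at 326 CPM at day 21 against 10.4 CPM in the control, while Ccr2 in monocyte/macrophage-like cells lay between 650 and 1237 CPM.

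Ccl3 and Ccl4 (MIP-1 alpha and beta), inflammatory chemokines, were highest per UMI in the small basophil/mast-like class (18, 16 and 96 cells). Ccl3 there was 9529, 7969 and 6139 CPM (568, 484 and 2106 UMIs), which was 84.8, 58.0 and 55.6% of all Ccl3 UMIs. Ccl4 there was 8137, 7130 and 4635 CPM (485, 433 and 1590 UMIs), 65.5, 27.0 and 40.5% of its UMIs. Both levels were thus lower in the 4T1 libraries in that class, though 18 and 16 cells were too few for a ratio under the minimum of 20 cells. Neutrophil markers, a list that includes Hdc, summed to 17403 CPM in day 21 basophil/mast-like cells, beside 47993 CPM for the basophil/mast markers. How much of that sum is these cells' own expression, and its part in the lower levels, was not tested.

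In Kupffer-like cells Ccl3 and Ccl4 were higher in both 4T1 libraries. Ccl4 was 27.4 CPM (99 UMIs), 53.7 CPM (369 UMIs) and 215 CPM (337 UMIs), with log2 ratios of 0.97 at day 4 (0.65 to 1.31) and 2.97 at day 21 (2.65 to 3.31). Ccl3 was 9.69 CPM (35 UMIs), 18.2 CPM (125 UMIs) and 84.9 CPM (133 UMIs), with log2 ratios of 0.89 (0.36 to 1.49) and 3.12 (2.59 to 3.71). The order control, day 4, day 21 was the same for both genes. Thinned to 1000 UMIs, Ccl4 was in 1.82, 3.89 and 15.6% of Kupffer-like cells (12.7, 17 and 20.5% unthinned) and Ccl3 in 0.91, 1.88 and 6.99% (5.20, 8.34 and 12.2% unthinned). Endothelial-like cells had Ccl4 in 0.289, 0.351 and 0.862% and Ccl3 in 0, 0.176 and 0.862% of cells. The 2 genes shared cells: at day 4 Ccl4 was in 48.7% of Kupffer-like cells with Ccl3 and 14.1% of those without, though cells with Ccl3 were also deeper (median 11209 against 6778 UMIs). Markers of basophil/mast cells, the class highest in both genes, summed to 3.32, 1.89 and 23.6 CPM in Kupffer-like cells.

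Other classes added to Ccl3 and Ccl4 in the 4T1 libraries. Unnamed cluster 22, led by Gzmb, Xcl1 and Ncr1 (genes of cytotoxic lymphocytes), had Ccl4 at 121, 878 and 364 CPM, and held 35% of Ccl4 UMIs at day 4, with 66.7% of those in 5 cells. NK/ILC1-like cells had Ccl4 at 173, 244 and 960 CPM, a day 21 log2 ratio of 2.46 (1.96 to 3.02). Conventional dendritic-like cells had Ccl4 at 9.70, 72.1 and 442 CPM and Ccl3 at 3.88, 30.6 and 205 CPM. At day 21 monocyte/macrophage-like cells had Ccl3 at 110 CPM (880 UMIs, 23.2% of all), in 31.9% of cells. Neutrophil-like cells held 13% of day 21 Ccl4 UMIs, at 101, 149 and 47.6 CPM. Within cluster 2, the neutrophil-like cluster present in all 3 libraries, Ccl4 was 119, 186 and 255 CPM, so there day 21 was the highest library and not the lowest.

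Ccl6 and Ccl9 (MIP-1 gamma), ligands of Ccr1, parted in Kupffer-like cells. Ccl6 there was 842 CPM (3042 UMIs), 927 CPM (6369 UMIs) and 1591 CPM (2491 UMIs), with log2 ratios of 0.14 at day 4 (0.08 to 0.20) and 0.92 at day 21 (0.84 to 0.99). Ccl9 was 79.2 CPM (286 UMIs), 38.6 CPM (265 UMIs) and 31.9 CPM (50 UMIs), with log2 ratios of -1.04 (-1.28 to -0.79) and -1.30 (-1.77 to -0.87). Summed over the class, Ccl6 was thus higher and Ccl9 lower at both times, the pair whose promoter windows are printed above. The lower Ccl9 was seen in deeper cluster 7 (86.0, 38.5 and 26.9 CPM) and not in shallower cluster 3 (32.6, 39.0 and 32.6 CPM), which had 15, 36 and 45 UMIs. Cluster 3 thus held 45 of the 50 Ccl9 UMIs of the class at day 21. Cluster 7 had 302 control and 40 day 21 cells, and cluster 3 had 179 and 639. The part of this mix of clusters in the day 21 ratio of Ccl9 was not tested. Kupffer-like cells with Ccl6 made up 83.6, 86.7 and 82.5% (50.8, 56.3 and 76.7% thinned), against 0.912, 3.57 and 2.21% of B-like cells.

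The myeloid sources of Ccl6 and Ccl9 outside Kupffer-like cells changed with the cells present. Neutrophil-like cells had Ccl6 at 1381, 1623 and 154 CPM (123, 598 and 1647 UMIs). Cluster 2 had 1629, 1912 and 486 CPM, and the clusters that were nearly all day 21 cells had 195 CPM (cluster 4) and 12.3 CPM (cluster 9). Ccl6 was therefore lower at day 21 both within cluster 2 and through the added clusters. Monocyte/macrophage-like cells had Ccl6 at 1026, 622 and 207 CPM and Ccl9 at 478, 385 and 288 CPM. In cluster 15 alone, however, Ccl9 at day 21 was 464 CPM, a log2 ratio of -0.05 (-0.38 to 0.31), and the 217 CPM of cluster 17 lowered the class. Basophil/mast-like cells had Ccl6 at 6828, 11032 and 4760 CPM and Ccl9 at 3674, 4083 and 1595 CPM. Of all Ccl9 UMIs at day 21, monocyte/macrophage-like cells held 53.9% (52.4 to 55.4) and neutrophil precursor-like cells 25.6% at 70.9 CPM, while Kupffer-like cells had held 41.0% in the control and 36.1% at day 4.

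**Figure D4:**
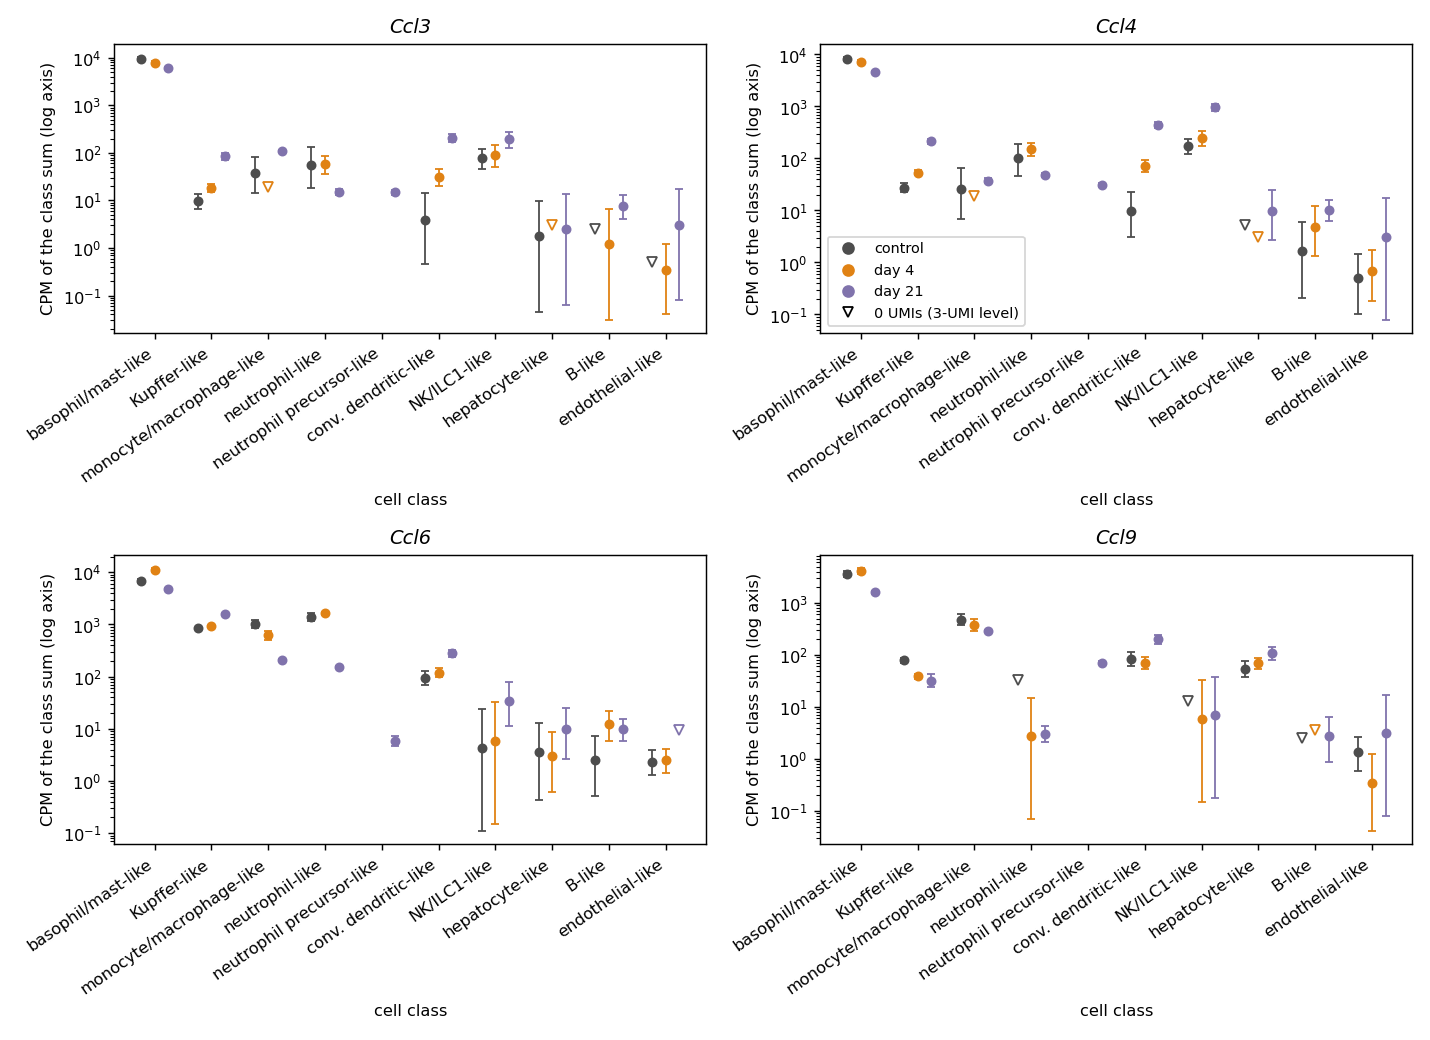
CPM of Ccl3, Ccl4, Ccl6 and Ccl9 in each class on a log axis, for the PBS control, 4T1 day 4 and 4T1 day 21 libraries, with 95% Poisson intervals as bars and open triangles at the level of 3 UMIs where a class had none. Basophil/mast-like cells lie highest for all 4 genes, and neutrophil-like Ccl6 stands at 154 CPM at day 21 against 1381 CPM in the control.

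Ccl24 lay mostly in Kupffer-like cells. They held 90.4, 92.9 and 78.9% (77.2 to 80.4) of its UMIs, at 934 CPM (3375 UMIs), 1080 CPM (7417 UMIs) and 1320 CPM (2067 UMIs). The log2 ratios were 0.21 at day 4 (0.15 to 0.27) and 0.50 at day 21 (0.42 to 0.58), both under 2-fold. It was in 85.2, 91.7 and 78.4% of Kupffer-like cells (49.0, 59.4 and 64.3% thinned) and in 0.912, 3.12 and 1.11% of B-like cells. Ccl24 in stellate-like cells (52.1, 64.5 and 42.8 CPM) came with Kupffer markers. Among the stellate-like cells with few such markers it was 2.84, 3.11 and 4.33 CPM, and in the control and day 4 cells of cluster 21 it was 600 and 592 CPM. The lower Ccl24 of the whole day 21 library (57.4 CPM, against 156 CPM in the control) stood beside a smaller share of Kupffer-like cells (6.83%, against 10.2% in the control) and a lower depth of these cells (median 1998 UMIs, against 7770 UMIs in the control), while the level within them was higher.

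**Figure D5:**
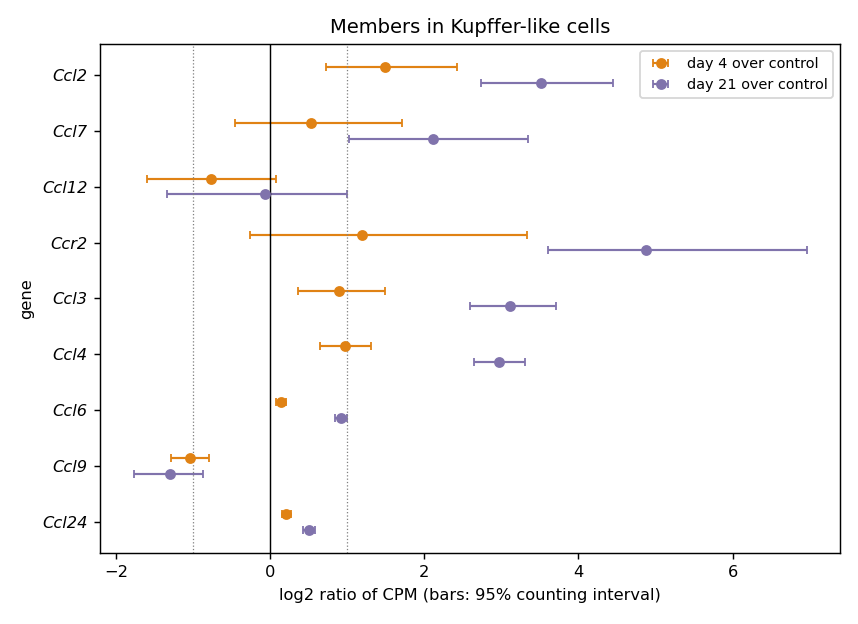
Log2 ratio of each of the 9 genes in Kupffer-like cells, 4T1 day 4 over PBS control and 4T1 day 21 over PBS control, with 95% intervals that cover counting error only and dotted lines at 2-fold. At day 21 Ccl2, Ccl7, Ccl3, Ccl4 and Ccr2 lie above the upper line and Ccl9 below the lower one.

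Counted over Kupffer-like cells at day 4, 1 of the 8 ligands was at least 2-fold higher (Ccl2) and 1 at least 2-fold lower (Ccl9), where 1.79% of all genes with 20 or more UMIs were that much higher and 2.44% that much lower. Other settings gave 1 to 3 ligands higher and 0 or 1 lower. Genes with that many UMIs over both libraries are called measured below. At day 21, 4 ligands were at least 2-fold higher (Ccl2, Ccl7, Ccl3 and Ccl4) and 1 lower (Ccl9), against 5.95% and 6.01% of all genes. Within the shallower Kupffer-like cluster alone, 0 ligands were that much lower at day 21. The median log2 ratio of the 8 ligands was 0.37 at day 4 and 1.51 at day 21, against 0.01 and 0.09 over all genes. In stellate-like cells 3 of 6 measured ligands at day 4 and 6 of 7 at day 21 were at least 2-fold higher (all but Ccl24 at day 21) and none was lower, where all genes gave 1.51% higher and 1.93% lower at day 4 and 6.59% and 4.79% at day 21. At day 4 Ccl7, 1 of the 3, rested on 19 UMIs against 1 in the control. Among stellate-like cells with few Kupffer markers, it had 8 UMIs in 2 cells at day 4 and 0 UMIs in the control. Of the 6 ligands higher at day 21, Ccl6 and Ccl9 turned to log2 -2.28 and -0.19 within cluster 21, Ccl6 also to -0.09 when each cell was classed by its own markers. Ccl3 and Ccl4 rested on few cells, as 90.0% and 89.7% of their day 21 UMIs lay in 5 cells, and the 13 neutrophil markers summed to 4874 CPM in day 21 stellate-like cells against 28.2 CPM in the control. In conventional dendritic-like cells 2 of 5 measured ligands at day 4 and 5 of 6 at day 21 were at least 2-fold higher and none lower, against 4.88% higher and 3.18% lower of all genes at day 4, and 12.6% and 4.21% at day 21, where the median of all genes was itself 0.22 on the log2 scale. Monocyte/macrophage markers in that class summed to 2418, 3586 and 6128 CPM, and their part in it was not tested.

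Ccr1 and Ccr3 had places of their own. Ccr1, for Ccl3, Ccl6 and Ccl9, was highest in neutrophil-like cells (921, 1048 and 398 CPM) and was also in basophil/mast-like cells (386, 494 and 344 CPM), both of which carried its ligand Ccl6. Ccr3, for Ccl24, was found in Kupffer-like cells at 208, 288 and 303 CPM (753, 1979 and 474 UMIs), the class that held most Ccl24, and no other named class reached 100 CPM of Ccr3.

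The other listed genes of the system did not all follow the members. Of 12 other CC chemokines 4 were measured in Kupffer-like cells at day 4 (1 at least 2-fold higher, 1 lower, median log2 ratio -0.36) and 3 at day 21 (0 higher, 2 lower, median -1.39). Ccl8 was 3.78 CPM at day 4 against 0.554 CPM in the control (26 and 2 UMIs), and Ccl17, a Ccr4 ligand, 2.04 CPM against 5.26 CPM, and 0.639 CPM at day 21. Of 12 monocyte recruitment and survival genes 10 were measured, with 0 higher and 2 lower at day 4 and 0 higher and 3 lower at day 21. Cx3cl1 (fractalkine) had 7 UMIs at day 4 and 0 at day 21 against 24 in the control, at least 3.47-fold lower at day 21. Of 8 NF-kB feedback genes 7 were measured, with 1 higher and 2 lower at each time. Tnfaip3, which encodes the inhibitor A20, was 27.2 CPM at day 4 and 30.7 CPM at day 21 against 98.8 CPM in the control. Of 4 decoy and atypical receptors 2 were measured, with 2 lower at day 4 and 1 at day 21, and of 9 other CC receptors 3, with 0 higher at day 4 and 1 at day 21, Ccr1, at 12.8 CPM against 0.554 CPM. Neutrophil-like cells express Ccr1, and neutrophil markers summed to 6404 CPM in day 21 Kupffer-like cells against 75.3 CPM in the control. The part of such transcripts in this Ccr1 was not tested. Within Kupffer-like cells Ccl2, Ccl3 and Ccl4 were higher while Tnfaip3 was lower. Tnfaip3 is 1 gene of its list, and the 7 measured NF-kB feedback genes had median log2 ratios of -0.53 at day 4 and 0.25 at day 21.

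In stellate-like cells at day 21, 4 of 7 measured NF-kB feedback genes were at least 2-fold higher and 1 lower, and 4 of 11 recruitment and survival genes were higher and 1 lower. Il1b, an inflammatory cytokine, was 130 CPM at day 21 and 22.0 CPM at day 4 against 6.86 CPM in the control, and Ccl5, a chemokine of lymphocytes, was 71.3 CPM at day 21 and 4.67 CPM at day 4 against 10.2 CPM. Ccr1 had 14.3 CPM at day 21 against 0 UMIs in the control, at least 20.1-fold higher, and Cx3cr1 0.680 CPM against 11.4 CPM. Neutrophil-like cells express Il1b and Ccr1, and neutrophil markers were found in this class at day 21; the part of those transcripts was not tested. At day 4, Rel, an NF-kB subunit, was 22.7 CPM against 63.2 CPM and Ccrl2, an atypical receptor, 31.5 CPM against 67.5 CPM. In conventional dendritic-like cells Ccl22, a Ccr4 ligand, was 159 CPM at day 4 against 9.70 CPM, Ccl5 was 55.0 CPM at day 4 and 96.8 CPM at day 21 against 608 CPM, and Ccr7, the lymph node homing receptor, was 31.8 CPM at day 4 against 93.2 CPM. Cx3cr1 in those cells was 111 CPM at day 4 and 144 CPM at day 21 against 31.1 CPM, and Nfkb1 253 CPM at day 21 against 89.3 CPM.

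Across the 35 sums of a class in a library with 20 or more cells, the genes most like each member in log2(CPM + 10) were named by Pearson correlation, as a description, since sums of 1 library share its depth and cells. Ccl7 was most like Ccl2 (r = 0.88), and Ccl3 and Ccl4 were most like each other (0.86). Ccl24 was most like Adgre1 (0.96), which encodes the macrophage protein F4/80, and Ccl6 like Nlrp3 (0.96), which encodes an inflammasome sensor. Ccr2 was most like S100a4 (0.86), Ccl9 like Cebpa (0.82), Ccl12 like Cd300e (0.75) and Ccl2 like Tubb6 (0.73).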

How the data were processed

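Each of the 3 libraries, 1 per group, was deposited as a matrix of raw UMI counts per gene and barcode, which per the file headers came from Cell Ranger 3.1.0 and per the submitters' processing notes used build mm10. The deposited matrices held only barcodes with at least 500 UMIs. How many mice made up a library, and whether counting used strand, is not stated in the labels or files. Barcodes were kept from 200 genes upward and up to 20% mitochondrial UMIs, a limit that 23.8, 32.0 and 10.7% of control, day 4 and day 21 barcodes exceeded. Scrublet, at 0.8% expected per 1000 barcodes, marked 0.845, 1.80 and 6.86% of scored cells as doublets (5.19, 7.34 and 9.87% expected), which were removed.

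Each cell's counts were scaled to a sum of 10000 and put on a log scale. Variable genes (1981 of 2000 after leaving out 19 listed chemokine genes), 30 principal components, 15 neighbours and Leiden resolution 1 gave the clusters, without integration of the libraries. A cluster was named from 20 marker lists where at least 3 markers were detected (10% of cells, 2-fold over other clusters), unless 2 classes tied, another class had as many or more markers among the 10 leading genes, or the cells were shallow with no marker among those genes; 5 clusters stayed unnamed for leading genes and 1 for each other reason. Raw counts were summed per class and library, and log2 ratios add 0.5 UMIs to each sum and need 20 cells in both libraries. Intervals are exact 95% (Poisson, Clopper-Pearson, conditional binomial), and PCR and cell to cell variation are not in them. A level of 0 was set against a floor of 3 UMIs. The ratio and interval steps were tested on simulated data.

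The members are given in full where a class held at least 10% of a member's UMIs. Of other lists, up to 4 genes with the largest ratio per class and comparison are named, and the receptors of the members beside them, except 1 gene that is not reported here. The 3 genes most like a member were ranked among genes with 200 or more UMIs. Members, markers and lists were chosen with earlier results of these data known. Alternatives were the cell filter, doublets, resolution, clustering genes, classes from single cells, means over cells and thinning to 1000 UMIs; single clusters and stellate-like cells with few Kupffer markers were added after seeing the data. Clustering used Scanpy 1.11.5 with leidenalg 0.10.2, igraph 0.11.9 and scikit-learn 1.9.0, and the sums, intervals and plots used SciPy 1.17.1, NumPy 2.4.6, pandas 2.3.3 and matplotlib 3.10.9 under Python 3.11.15.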

Additional observations from a re-analysis of the deposited data

Results flagged for a closer look

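Ccl3 in monocyte/macrophage-like cells had log2 ratios over the control that differed in sign, -3.69 at day 4 and 1.41 at day 21. The day 4 value comes from 0 UMIs against 6 with 0.5 added to each, so its size is no bound, and against the floor of 3 UMIs the level was at least 1.99-fold lower. The difference between the times was not tested, and the day 4 and control values rest on 23 and 26 cells.

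Barcodes that the cell filter removed, left out of the reported comparisons, also held more of some members at day 21 than in the control. Their log2 ratios, day 21 over control, were 1.99 for Ccr2 (41.8 against 10.4 CPM), 3.51 for Ccl3 (21.5 against 1.74 CPM), 3.91 for Ccl4 (54.5 against 3.48 CPM), 1.55 for Ccl6 (160 against 54.6 CPM) and 1.41 for Ccl24 (163 against 61.2 CPM). Ccl24, lower at day 21 in the kept cells as a whole, was thus higher in the removed barcodes.

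Called doublets, left out of the reported comparisons, held more of some members at day 21. The log2 ratios over the control were 1.75 for Ccl2, 2.76 for Ccr2, 2.62 for Ccl3, 2.98 for Ccl4 and 3.25 for Ccl9. In the control doublets these genes had only 3, 18, 7, 7 and 4 UMIs, and the 3 Ccl2 UMIs lay in 1 barcode. The share of all genes that differed as much in doublets was not computed. Ccl6 was at 263 CPM at day 21 against 181 CPM in the control, and Ccl24, in the other direction, at 79.9 CPM against 160 CPM. At day 4 the ratio of Ccl4 in called doublets was 1.30 (41.9 against 16.0 CPM). The control had 40 called doublets, day 4 had 99 and day 21 had 732.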

How the results depend on the processing

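No paired analysis was possible because each group had 1 library, and for the same reason no library could be left out. Of the log2 ratios recomputed under the alternatives, 663 were counted as unchanged, 149 as moved and 9 as reversed. Of the shares of UMIs 152 were counted as unchanged and 58 as moved. Unchanged means within the interval of the reported value, which does not by itself fix the direction. Reversals were counted over 585 of the log2 ratios, so a change of sign among the others is not in the 9. The reversed values were Ccl9 in Kupffer-like cells at day 4 (0.23 in the shallower cluster alone), Ccl6 in stellate-like cells at day 4 (-0.32 at most 10% mitochondrial UMIs, -0.12 with classes from each cell's own markers) and at day 21 (-0.087 with own markers, -2.28 in cluster 21 alone), Ccl24 in stellate-like cells at day 4 (-0.53 at most 10% mitochondrial UMIs, -0.57 with own markers, -0.019 in cluster 21 alone) and Ccl9 there at day 21 (-0.19 in cluster 21). The log2 ratio of Ccl2 in stellate-like cells moved to 2.05 at day 4 and 4.33 at day 21 in cluster 21 alone and to 6.69 at day 21 after thinning, and in Kupffer-like cells at day 21 to 1.85 after thinning. Ligands at least 2-fold higher in Kupffer-like cells at day 4, 1 as reported, were 3 at most 10% mitochondrial UMIs or with own markers and 2 with no cell filter, resolution 2, means over cells or thinning. The 1 lower ligand became 0 with means over cells or in the shallower cluster at both times, and at day 21 also with own markers. The share of Ccr2 UMIs in monocyte/macrophage-like cells was 13.7% in the control at most 10% mitochondrial UMIs, and at day 4 8.20% with no filter and 13.2% with own markers. At day 21 it was 42.4% with no filter, 83.9% at most 10% mitochondrial UMIs, 39.9% with doublets kept, 36.8% at resolution 0.5, 68.8% at resolution 2, 79.2% with the chemokine genes used to cluster and 63.4% with own markers. The share of Ccl2 UMIs in day 21 stellate-like cells was 34.2% at resolution 2, and that of Ccl24 in day 21 Kupffer-like cells 83.2% with no filter, 62.1% at most 10% mitochondrial UMIs and 81.0% at resolution 2. The cause of these changes was not tested. Ccl7 and Ccl12 are limited by depth, with at most 112 UMIs in the kept cells of a library.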
